A study of Mus musculus and Rattus norvegicus with 2 samples.

Results

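Fragments of 8 spermatid transcripts were examined in small RNA from mouse sperm: the protamines Prm1 and Prm2, the transition proteins Tnp1 and Tnp2, the mitochondria-associated protein Smcp, the outer dense fibre proteins Odf1 and Odf2, and the fibrous sheath protein Akap4. Their reads were the plus-strand sequences listed under GenBank mRNA entries whose whole length matched a transcript of the gene on the sense strand with at most 2 mismatches, with no other gene matched as well. All 8 genes had such reads, 517 in 218 distinct sequences (exact Poisson 95% interval 473 to 564 reads), out of 1895073 reads in 648517 sequences under plus-strand mRNA entries. The mouse library came from purified sperm of the caput epididymis of C57BL/6 animals aged 2 months. The series also holds a library of the same kind from young adult Sprague Dawley rats of 450 g. RNA of 18 to 45 nt was selected and sequenced. With 1 library per species there was no replicate, so no test was made, and all intervals cover counting error only.

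Protamines and transition proteins are small basic proteins that replace histones when the nucleus of the elongating spermatid condenses. The outer dense fibres, the fibrous sheath and the mitochondrial sheath are built around the axoneme of the tail at about the same stage. Because condensed chromatin is not transcribed, the mRNAs of these proteins are made early, stored with bound protein and translated later. Smcp, Odf1 and Akap4 are known from the germ line, while Odf2 also serves the centriole of somatic cells.

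The genes for Prm1 (ENSMUSG00000022501.6, chr16:10796326-10805839), Prm2 (ENSMUSG00000038015.6, chr16:10791380-10796134) and Tnp2 (ENSMUSG00000043050.8, chr16:10787936-10788660) lie together on the minus strand of chromosome 16, within 17904 nt. Tnp1 (ENSMUSG00000026182.6) lies at chr1:73015074-73015909 and Smcp (ENSMUSG00000074435.10) at chr3:92583867-92588997, both on the minus strand. Odf1 (ENSMUSG00000061923.4, chr15:38219203-38226735), Odf2 (ENSMUSG00000026790.19, chr2:29889221-29931746) and Akap4 (ENSMUSG00000050089.13, chrX:7067519-7078609) lie on the plus strand. The representative transcripts of the chromatin genes are short, 437 nt for Tnp1, 469 nt for Prm1, 554 nt for Tnp2 and 621 nt for Prm2, each with 2 exons. Those of the tail genes are longer, 861 nt for Smcp and 1105 nt for Odf1 with 2 exons each, 3021 nt for Akap4 with 7 and 3826 nt for Odf2 with 21.

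The sequences below show where reads shared an end or crossed the start codon. UTR stretches over 30 nt are not printed, so the most read Prm1 form, of 31 nt, is shown by shorter forms with the same end and 1 read each. All are reads as listed in the deposited table, 5′ to 3′ with T for U. Capitals at the end of a read mark the last 10 bases where that read shares the most frequent 3′ end of its gene, and capitals inside a read mark the start codon. Coordinates are from GENCODE vM21 on GRCm38. The Smcp reads lie in the 3′ UTR, in exon 2 of 2, and the longest covers chr3:92583954-92583982 on the minus strand.
Smcp, 29 nt: tcgacctaactgtaggctaCTATTGCAAC
Smcp, 23 nt: taactgtaggctaCTATTGCAAC
Smcp, 22 nt: aactgtaggctaCTATTGCAAC
The Prm1 reads lie in the 5′ UTR in exon 1 of 2, and the longer of those shown covers chr16:10796745-10796772 on the minus strand.
Prm1, 28 nt: gtgtcccctgctctgagcCAGCTCCCGG
Prm1, 25 nt: tcccctgctctgagcCAGCTCCCGG
The Prm2 reads show the end just before the start codon (chr16:10791999-10792024, minus strand), a read across it (chr16:10791975-10792013) and the leading read of the coding sequence (chr16:10791861-10791891).
Prm2, 26 nt: ccagaacctcctgatcTCCTGGCACC
Prm2, 39 nt: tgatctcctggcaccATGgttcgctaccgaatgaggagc
Prm2, 31 nt: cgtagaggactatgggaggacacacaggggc
The Odf1 reads lie in the coding sequence, in exon 2 of 2, and the longest covers chr15:38226151-38226191 on the plus strand.
Odf1, 41 nt: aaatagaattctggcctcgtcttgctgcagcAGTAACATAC
Odf1, 35 nt: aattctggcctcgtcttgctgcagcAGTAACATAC
Odf1, 34 nt: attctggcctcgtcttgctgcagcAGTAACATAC

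Smcp, which coats the mitochondria of the midpiece, had the highest level of the 8, and Akap4, the X-linked anchor of protein kinase A in the fibrous sheath, had the lowest. Levels are given as reads per 1000000 listed reads (rpm) and, to compare genes, as rpm per kilobase of a representative transcript. Smcp had 176 reads in 45 sequences and stood at 17.4 rpm per kb (14.9 to 20.1). Prm2 had 85 reads in 46 sequences and stood at 11.6 (9.30 to 14.4). Odf1, the major protein of the outer dense fibres, had 65 reads in 34 sequences and stood at 5.002 rpm per kb (3.86 to 6.38).

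The chromatin genes other than Prm2 were lower. Prm1 had 19 reads in 12 sequences, at 3.44 rpm per kb (2.07 to 5.38). Tnp2 had 22 reads in 13 sequences, at 3.38 rpm per kb (2.12 to 5.11). Tnp1 had 9 reads in 4 sequences, at 1.75 rpm per kb (0.801 to 3.32).

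Odf2 had the most reads after Smcp, 139 in 62 sequences, which over the 3826 nt of its representative transcript was 3.09 rpm per kb (2.60 to 3.65). Only 102 of these reads lay on that transcript, and they alone came to 2.27 rpm per kb (1.85 to 2.75), which left the place of Odf2 between Tnp2 and Tnp1. Of its reads, 114 matched a protein-coding transcript and 25 matched only transcripts with a retained intron. Akap4 had 2 reads over 3021 nt, at 0.0563 rpm per kb (0.00682 to 0.203), which is below the limit of 3 reads that a count of 0 would allow (0.0844 rpm per kb). That limit depends on transcript length and was 0.0667 rpm per kb for Odf2, 0.231 for Odf1, 0.296 for Smcp, 0.411 for Prm2, 0.460 for Tnp2, 0.544 for Prm1 and 0.584 for Tnp1. The lower bounds of these 7 genes all lay above their own limits.

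Neighbours in this order were told apart by counting error in 3 of 7 cases. Smcp was 1.49-fold above Prm2 per kb (1.15 to 1.96), Prm2 was 2.33-fold above Odf1 (1.66 to 3.27), and Tnp1 was 31.1-fold above Akap4 (6.44 to 296). The intervals of Odf1 over Prm1, Prm1 over Tnp2, Tnp2 over Odf2 and Odf2 over Tnp1 all held 1, with ratios from 1.02 to 1.76, and those of Tnp2 over Odf2 (0.894 to 2.38) and Odf2 over Tnp1 (0.656 to 2.91) also did with the Odf2 reads on the representative transcript alone. Within the pairs of related proteins, Prm2 was 3.38-fold above Prm1 (2.04 to 5.89), and Tnp2 over Tnp1 was 1.93 (0.853 to 4.76). The place of Smcp rested on reads with a shared 3′ end: its other 52 reads came to 5.14 rpm per kb, below Prm2.

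**Figure D1:**
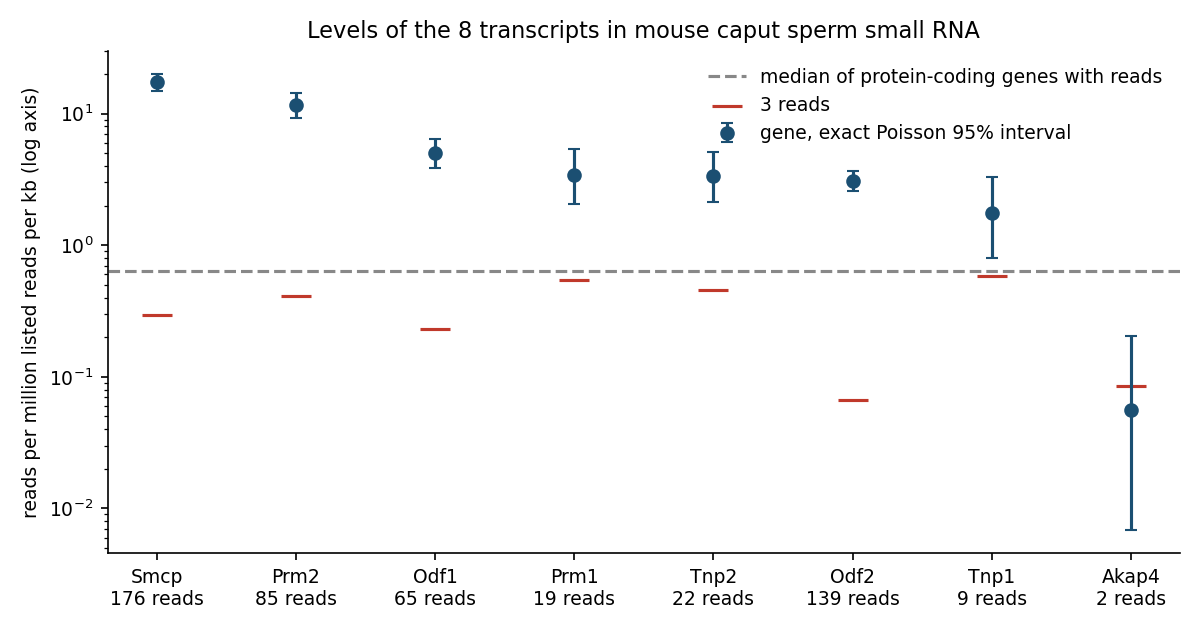
Level of each of the 8 transcripts in the mouse library as rpm per kb on a log axis, with exact Poisson 95% intervals. Red bars mark the level of 3 reads for each transcript and the dashed line the median of protein-coding genes with reads, 0.640. Smcp is highest at 17.4, and Akap4 is the only gene under the dashed line, at 0.0563.

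Set against other genes, 7 of the 8 stood above the median of all protein-coding genes with reads, which was 0.640 rpm per kb over 14943 genes (68.2% of 21922 in the annotation). Smcp lay above 98.1% of genes with reads, Prm2 above 96.9%, Tnp1 above 73.4% and Akap4 above 10.03%. The genes were chosen as spermatid markers, so these positions describe them and say nothing of spermatid genes at large.

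The 8 genes had a median of 3.41 rpm per kb and 517 reads in all. A list of other spermatid and sperm genes had a median of 0.172 rpm per kb, genes without reads included, and 458 reads. Over all protein-coding genes, with and without reads, the median was 0.189 rpm per kb. Of the 37 genes on that list, 36 were found in the annotation and 25 had reads, 18 of them more than 3. Of all 21922 protein-coding genes, 14943 (68.2%) had reads and 12226 had more than 3. Above the median of genes with reads stood 7 of the 8 genes and 10 of the 36. The 36 include 11 genes without reads, which that median leaves out. A smaller share of all genes than of genes with reads therefore stands above it. The 10 of 36 belongs beside that smaller share, which was not counted. By medians, the list at 0.172 rpm per kb was close to all protein-coding genes at 0.189. The highest counts were 96 reads for Ybx2, which binds stored spermatid mRNA, 77 for Gsg1 and 74 for Gapdhs, the glycolytic enzyme of the sperm tail. Prm3, which lies between Prm2 and Tnp2 on chromosome 16, had 2 reads. No read was found for 11 genes, among them the tektins Tekt1, Tekt2 and Tekt4 and the acrosomal genes Acrv1 and Spaca1, which allows up to 3 reads each.

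Transcripts of the caput duct were far more frequent than the spermatid transcripts in this sperm preparation. The 8 spermatid genes summed to 44.0 rpm (40.3 to 47.9), against 4464 rpm (4425 to 4502) for 18 markers of caput principal cells, a 102-fold difference (93.1 to 111) in the summed reads, of which Gpx5 and Adam7 made up 24611 and 13997 of 52494 in the duct list. By medians, which do not depend on the number of genes, the 8 genes stood at 3.41 rpm per kb and the duct markers at 55.8. All 18 principal cell markers had reads, from 0.958 to 1250 rpm per kb. By number of reads, Gpx5, a secreted glutathione peroxidase, led all protein-coding genes. Among all protein-coding genes, 68.2% had reads. The 5 smooth muscle markers all had reads and summed to 64.4 rpm, led by the actin Acta2 with 386 reads. The 5 leukocyte markers all had reads and summed to 34.5 rpm, led by the lysozyme Lyz2 with 249. The 4 Sertoli cell markers summed to 9.18 rpm, of which Sox9, also made elsewhere, had 102 of 108 reads, and Wt1, Amh and Rhox5 had 3, 2 and 1. Of the 5 red blood cell markers 2 had reads, 26 for Alas2 and 1 for Hbb-bs, and Hba-a1, Hba-a2 and Hbb-bt had 0, but globin copies share sequence and reads shared between genes were left out. The part of these cells in the reads of the 8 genes was not tested, and in RNA from many cells fewer cells and less RNA per cell cannot be told apart.

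Smcp reads piled up at a single place within the 3′ UTR. Of its 176 reads, 124 (70.5%, exact binomial 95% interval 63.1 to 77.1) ended at the same base, 774 nt from the transcript start and 87 nt before the annotated transcript end. They made up 18 distinct sequences of 21 to 41 nt, so that the 3′ end was fixed while the 5′ end varied. The leading form, the 29-nt read printed above, had 23 reads, the 23-nt form 19 and the 22-nt form 15. The most frequent 5′ end of Smcp held only 24 reads (13.6%, 8.94 to 19.6). Of the Smcp reads, 136 (77.3%, 70.4 to 83.2) had their midpoint in the 3′ UTR, which is 27.9% of the transcript.

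Prm1 and Odf1 had smaller groups of reads with a common end. In Prm1, 11 of 19 reads (57.9%, 33.5 to 79.7) ended 142 nt from the transcript start, with 13 bases between this end and the start codon. These were 6 sequences of 25 to 42 nt, led by a 31-nt form with 5 reads. In Odf1, 19 of 65 reads (29.2%, 18.6 to 41.8) ended at base 561 of the transcript, in 6 coding sequence fragments of 30 to 42 nt. The forms of 34, 35 and 41 nt had 5, 4 and 4 reads.

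A shared 3′ end is common among mRNA fragments of this library. Over 3804 protein-coding genes with 50 to 250 reads, the share of reads at the most frequent 3′ end had a median of 15.4%, and that at the most frequent 5′ end a median of 8.53%. Smcp lay above 95.1% of these genes by its 3′ end, and 187 genes, Smcp itself among them, had a share as high or higher. Odf1 lay above 72.9%, Odf2 with 15 of 102 reads (14.7%) above 47.6%, and Prm2 with 9 of 85 reads (10.6%) above 31.5%. The shares at a 3′ end count reads, so a gene read mostly as 1 sequence also scores high. Fgf6 had 99.5% of its reads at its most frequent 3′ end in 1 distinct sequence, while the Smcp end held 18.

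**Figure D2:**
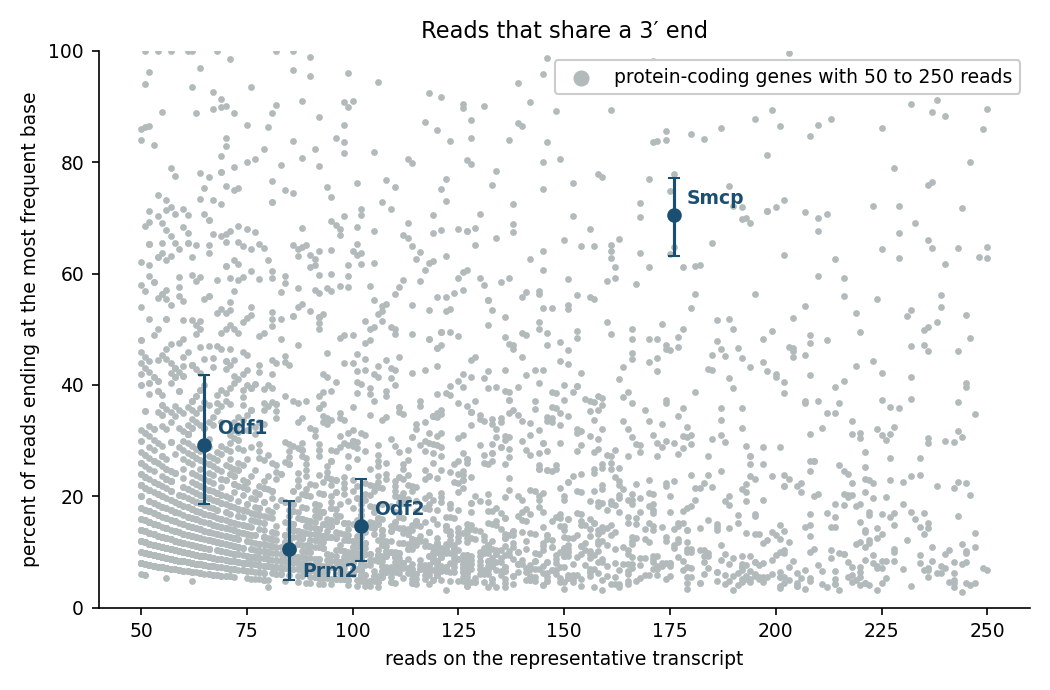
Percent of reads that end at the most frequent base (vertical axis) against the number of reads on the representative transcript (horizontal axis), for 3804 protein-coding genes with 50 to 250 reads (grey) and the 4 spermatid genes in that range (blue, exact binomial 95% intervals). Smcp stands at 70.5%, Odf1 at 29.2%, Odf2 at 14.7% and Prm2 at 10.6%. The 3804 genes include these 4.

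Prm2 reads gathered around the start codon but had 36 different 3′ ends. Of 85 reads, 27 (31.8%, 22.1 to 42.8) crossed the start codon, and the deepest base, at 104 nt from the transcript start, was covered by 37 reads. The most frequent 3′ end lay at the base just before the start codon, at 107 nt. By midpoint, 34 reads lay in the 5′ UTR (40.0%, 29.5 to 51.2), which is 17.2% of the transcript, 29 in the coding sequence and 22 in the 3′ UTR. The leading sequence, the 31-nt coding read printed above, had 5 reads.

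Prm1 reads were still more confined, with 17 of 19 (89.5%, 66.9 to 98.7) in the 5′ UTR, which is 33.0% of the transcript. The coding sequence held 1 read and the 3′ UTR 1. In Tnp1, 6 of 9 reads lay in the 3′ UTR and 3 in the coding sequence, and those 3 were a single 18-nt sequence (chr1:73015727-73015744, minus strand).
Tnp1, 18 nt: taggaaacggggcgatga
This short read held 3 of the 9 Tnp1 reads, and a 35-nt sequence of the 3′ UTR held 4.

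The coding sequence took most reads of Tnp2 and of the tail genes Odf1 and Odf2. Tnp2 had 17 of 22 reads there (77.3%, 54.6 to 92.2), against 63.9% of its length. Odf1 had 63 of 65 (96.9%, 89.3 to 99.6), against 67.6% of its length, and none in its 5′ UTR. Odf2 had 70 of the 102 reads on its representative transcript (68.6%, 58.7 to 77.5), against 64.8% of its length. Both Akap4 reads were coding. These reads are shown because they are among the most read coding fragments of Tnp2 (where a 43-nt sequence also had 3 reads; chr16:10788356-10788382 and chr16:10788416-10788442, minus strand) and Odf2 (exons 8, 11 and 13), and all that was found of Akap4 (chrX:7073151-7073179 and chrX:7078354-7078374, plus strand).
Tnp2, 27 nt, downstream: agacccagccaccgcgggagctgcccc
Tnp2, 27 nt, upstream: agccctggcccgcccatgaagcacccc
Odf2, 21 nt, exon 8: caccctccgagatctgttgag
Odf2, 19 nt, exon 11: tctgagcttTCCAAGTCCA
Odf2, 26 nt, exon 13: tgtgaaggacaaaggagatcttgagt
Akap4, 29 nt: atgctttgtggatgtgtctaccttgaatg
Akap4, 21 nt: ctggatgaagccgtgggcaac
Each of the Tnp2 sequences had 3 reads, each of the Odf2 sequences 6, and each of the Akap4 sequences 1. Over all 8 genes, 208 of 480 placed reads were coding (43.3%, 38.8 to 47.9), against 65.9% of the summed length, and without Smcp the share was 60.9% (55.1 to 66.4).

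**Figure D3:**
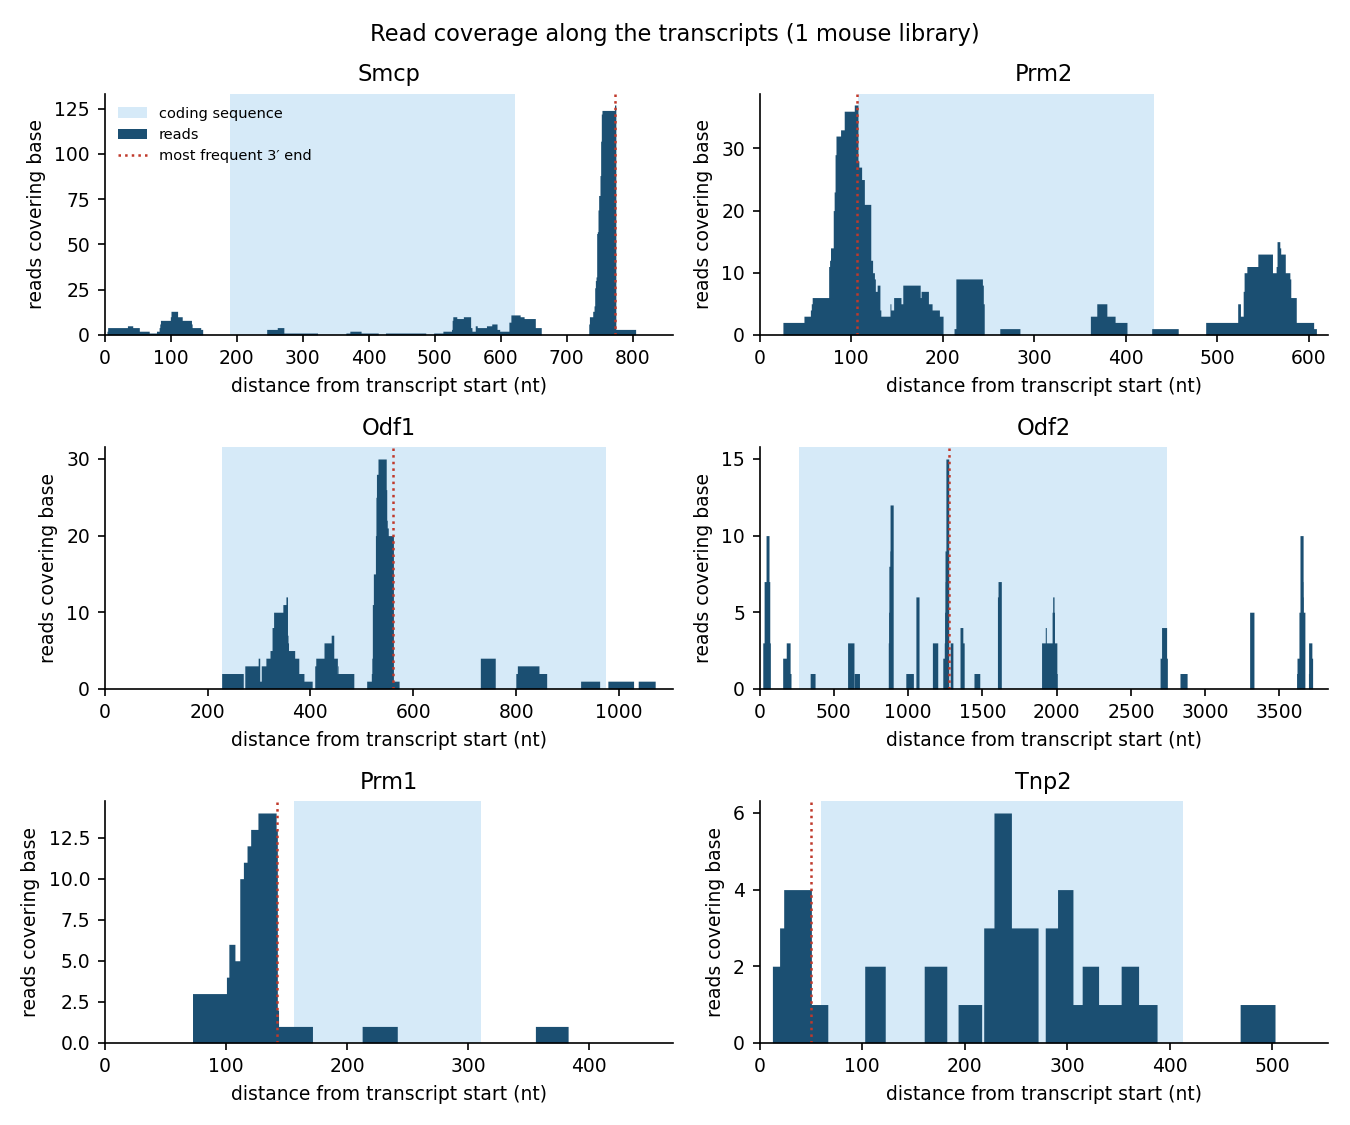
Number of reads covering each base (vertical axes, scaled per gene) against the distance from the transcript start in nt for 6 of the genes. Pale blue marks the coding sequence and the dotted line the most frequent 3′ end. Smcp coverage reaches 127 reads at the shared end in the 3′ UTR, Prm2 peaks at 37 by the start codon, and Odf1 peaks at 30 in the coding sequence.

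**Figure D4:**
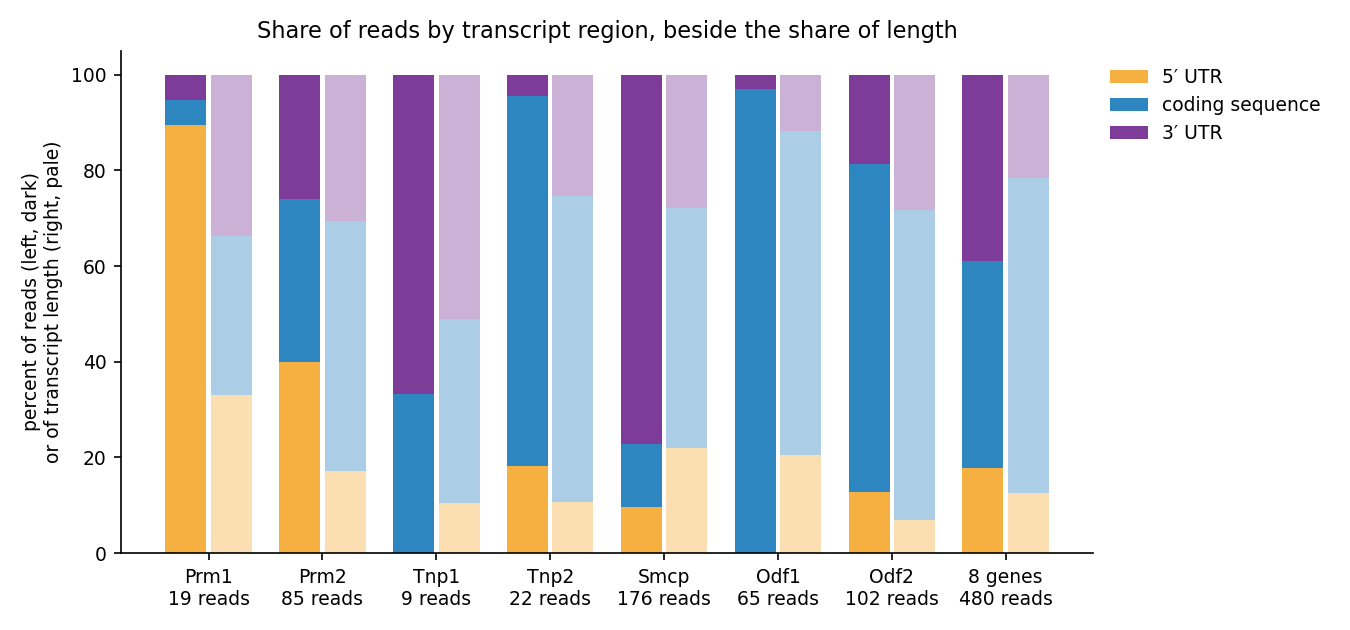
Percent of placed reads by region (dark bars on the left of each pair) beside the percent of transcript length (pale bars on the right), for 7 genes and for all 8 together. Akap4, with 2 reads, is left out as a bar of its own. Prm1 reads lie in the 5′ UTR (89.5%), Smcp reads in the 3′ UTR (77.3%) and Odf1 reads in the coding sequence (96.9%).

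Coverage was partial in every gene. Reads covered 67.6% of Prm2, 65.7% of Smcp, 56.9% of Tnp2, 47.1% of Odf1, 33.0% of Prm1, 27.0% of Tnp1, 21.6% of Odf2 and 1.66% of Akap4. The furthest Tnp1 read ended at base 367 of 437 and the furthest Smcp read at base 804 of 861. Only 3 of 480 reads (0.625%), all of Prm2, crossed an exon junction by at least 5 bases on each side, where reads starting evenly along the transcripts would have given 5.28%. The Odf2 transcript, with 21 exons, had 0 such reads of 102, against 11.8% of even starts. The other protein-coding genes had 1.63% against 9.13%. These counts depended on the overhang asked for. With an overhang of 1 base or more, 15 reads of the 8 genes crossed a junction (3.125%, against 7.06% of even starts). Of these, 12 were in Odf2 and 3 in Prm2. The other genes had 4.92% against 11.9%. Overhangs of under 5 bases were not checked against intron sequence, so they do not show splicing.

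The reads were short fragments with no narrow length class. Their median was 31 nt, with quartiles of 26 and 39, against 34 nt (27 and 42) for the other protein-coding genes. Reads of 26 to 31 nt made up 31.5% (27.5 to 35.7) for the 8 genes and 21.4% for the others. The most frequent length was 29 nt for the 8 genes, which includes the leading Smcp form, and 30 nt for the others. Without Smcp the median was 32 nt and reads of 26 to 31 nt were 29.0% (24.3 to 34.2).

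Lengths differed between the genes. Prm2 reads were the longest, with a median of 38 nt and 25.9% above 45 nt, beyond the labelled size range. Smcp, Odf2 and Tnp2 reads had medians of 29 nt, Prm1 reads 31 nt, Odf1 reads 34 nt and the 9 Tnp1 reads 35 nt, and the 2 Akap4 reads were 21 and 29 nt long. Reads above 45 nt were 12.6% (9.84 to 15.7) for the 8 genes and 17.03% for the other protein-coding genes, and the longest read, from Smcp, had 76 nt.

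**Figure D5:**
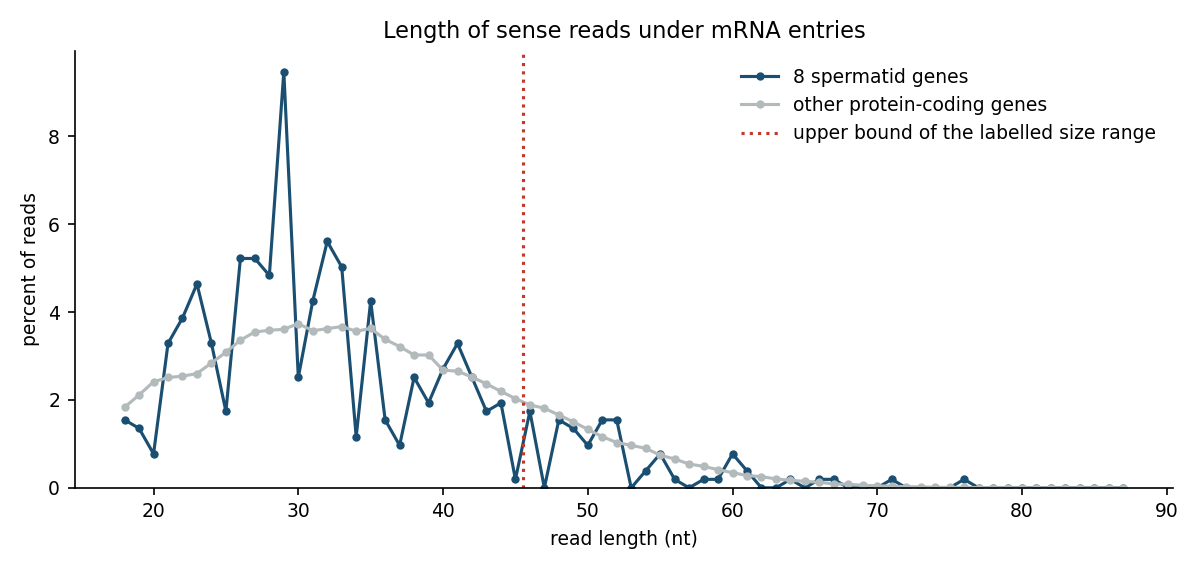
Percent of sense reads (vertical axis) by read length in nt (horizontal axis) for the 517 reads of the 8 genes (blue) and for all other protein-coding genes (grey). The blue curve peaks at 29 nt and the grey curve at 30 nt, and the dotted line marks the upper bound of the labelled size range, 45 nt.

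The reads of the 8 genes began with A in 31.9%, C in 27.5%, T in 26.7% and G in 13.9%, against 32.2%, 28.6%, 24.9% and 14.3% in the other protein-coding genes. They ended in C in 51.5%, against 35.98% in the others, and without Smcp in 36.4%. In Smcp 80.7% of reads ended in C, the base of its shared end. The transcripts themselves held 28.6% A, 25.1% C, 25.3% G and 21.0% T.

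Nearly all matches were exact, with 511 of 517 reads free of mismatches and 6 with 1. A further 11 reads in 6 sequences matched another gene equally well, 8 of them in Odf2, 2 in Smcp and 1 in Prm2. For Prm1, Prm2 and Smcp, no read matched only the second annotated transcript, while 8, 27 and 17 reads matched only the representative. Of the 218 sequences, 46.8% were read once, against 51.9% in the other protein-coding genes. The most abundant sequence was the 29-nt Smcp form with 23 reads.

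Reads that matched these mouse transcripts were also listed for rat. Rat reads were found only where the species differ by at most 2 bases, so some can be missed. They were aligned to mouse transcripts only, so reads of other rat genes can be counted in. The rat counts can therefore be too low or too high. The mouse table held 517 reads, and the rat table held 864 (807 to 924) in 779 sequences, of which 342 matched exactly. In rat, Odf2 had 372 reads, Odf1 300, Prm1 72, Smcp 35, Tnp2 33, Akap4 30, Prm2 15 and Tnp1 7. Levels are not compared between species. Of the rat sequences 91.5% were read once, and no rat read of Smcp or Odf1 ended at the mouse base shared there, while 2 of 72 Prm1 reads did. Whether rat sequence at these places is close enough to be matched was not checked. These counts therefore do not show whether the ends are shared in rat.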

How the data were processed

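The deposited tables hold raw read counts per distinct sequence, each beside a matched miRBase, Rfam or GenBank entry and at most 2 mismatches, per the file headers. Bowtie 0.12.7 and the builds mm9 and rn5 appear, with no role stated, per the submitters' processing notes. How reads were trimmed and filtered was not stated in what was used here. The mouse table lists 11760708 reads in 914516 sequences, 40.6% of its sequence numbers, and sequences that are not listed were not analysed here. A closing line of the mouse table with only the sum was left out.

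Minus-strand sequences were turned back to the read. All sequences were aligned to GENCODE vM21 transcripts (GRCm38) with bwa 0.7.19, with no gaps and at most 2 mismatches, keeping the best matches. Of plus-strand mRNA reads, 83.9% matched a transcript and 74.9% the sense strand of a single gene. Records carry no gene names except through RefSeq accessions, which named 194 of the 517 reads. No genome sequence was used, so a match outside annotated transcripts would not be seen. The representative transcript was the protein-coding one with most reads. Intervals are exact at 95% (Poisson, binomial, or conditional binomial for ratios), and cover counting error only, since reads are PCR products. For a count of 0 the text uses a one-sided limit of 3 reads, where the two-sided interval would reach 3.69. The limit of 3 reads is 0.255 rpm. Computations used Python 3.11.15 and SciPy 1.17.1.

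The genes and lists were chosen with earlier results of these data known. The rule for named genes took all 8 genes, up to 3 of the most read genes of each comparison list and the most read gene of all. Other named genes, and the comparisons of shared ends and exon junctions, were chosen after their values were seen.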

Additional observations from a re-analysis of the deposited data

Results flagged for a closer look

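Antisense reads, which take no part in the values above, were counted for the same genes. Odf2 had 10 antisense reads in 5 sequences under minus-strand mRNA entries, more than the 3 reads that a count of 0 allows. Prm2 had 7 antisense reads under entries other than mRNA. Smcp had 3 and Akap4 1 under minus-strand mRNA entries, and the other 4 genes had 0 under any entry. Minus-strand entries made up 10.1% of all mRNA reads in this library.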

How the results depend on the processing

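The summed count was 517 reads. It moved to 1119 when any 18-nt word on a member transcript counted. Most of the gain was in Tnp2, which rose from 22 to 282 reads, and Odf2, from 139 to 454. The summed count moved to 194 by RefSeq record names alone, 415 for sequences with at least 2 reads and 452 for reads of 18 to 45 nt. It was 465 without the most abundant sequence of each gene and 378 without Odf2. It stayed within its counting interval with exact matches, sequence matches alone, shared reads, every class of entry or protein-coding transcripts only (492 to 528 reads). The coding share of 43.3% moved to 61.0% by RefSeq names alone, 36.5% without Odf2 and 60.9% without Smcp. In the other settings tried it was 40.8% to 44.6%. With any 18-nt word or with protein-coding transcripts only, the share rested on the same 480 placed reads and was no check. The level of 44.0 rpm became 64.2 without the most abundant library sequence, and 273 per 1000000 plus-strand mRNA reads. The median length of 31 nt became 33.5 nt when each sequence counted once. Leaving out Odf2 or Smcp, the restriction to protein-coding transcripts, the Odf2 level on its representative transcript and the shorter junction overhang were chosen after seeing the data. For single genes, 16 of 80 recounts left the counting interval, and Akap4 had 0 reads in sequences with at least 2. No paired analysis was possible because each species has 1 library. Genes with few reads, Akap4, Tnp1 and Prm1 above all, are limited by depth.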
